A study of Mus musculus with 96 samples.

Results

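A set of 10 genes that carry iron into a red cell precursor, store it there and pass it to the mitochondria was described one cell at a time. They were Tfrc, Tfr2, Steap3, Slc11a2, Slc25a37, Fth1, Ftl1, Pcbp1, Ncoa4 and Ireb2, chosen by name for their place in iron handling, and all 10 were found among the 24321 gene symbols of the expression table. The cells were 96 single cells from murine marrow, labelled erythroid precursor, of C57BL/6 background and genotype Rpl11 +/lox, so every cell carried 1 lox allele of a gene for a large-subunit ribosomal protein, a state the series calls haploinsufficient. The series places them between the burst-forming unit-erythroid, an early red cell progenitor, and the basophilic erythroblast, a nucleated precursor that is filling with haemoglobin. No Cre line, animal, age or wild-type cell is named in the sources used here, so all cells together are 1 sample, genotypes could not be compared and no test was made.

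A developing red cell takes up transferrin-bound iron through the transferrin receptor, frees and reduces the iron in the endosome, exports it to the cytosol through a divalent metal transporter and imports it into mitochondria, where it is inserted into haem. Spare iron is held in ferritin shells of heavy and light chains and is released when ferritin is degraded. Much of this control is exerted on messenger RNA: iron regulatory proteins bind short hairpins, iron-responsive elements, and when iron is scarce they block translation of ferritin while protecting transferrin receptor RNA from decay. RNA levels, the quantity measured here, are therefore not protein levels.

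Those hairpins were looked for in the members' own transcripts, and the sites are shown because they link the ferritin and receptor genes to one control system. The search asked for a C, any 5 bases, the loop letters CAGTG, any base and 5 bases of which at least 4 pair with the first 5, written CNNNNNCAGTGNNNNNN, on the transcript strand only. In each line the capitals mark the 6-base loop, and positions are on GRCm38.
Tfrc 3′ UTR site 1, chr16:32631219-32631248, plus strand: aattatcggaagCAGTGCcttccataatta
Tfrc 3′ UTR site 2, chr16:32631598-32631627, plus strand: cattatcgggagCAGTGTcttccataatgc
Tfrc 3′ UTR site 3, chr16:32631663-32631692, plus strand: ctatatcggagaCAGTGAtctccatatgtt
Tfrc 3′ UTR site 4, chr16:32631710-32631739, plus strand: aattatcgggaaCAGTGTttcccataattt
Slc11a2 3′ UTR, longer transcript, chr15:100395152-100395181, minus strand: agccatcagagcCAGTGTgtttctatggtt
Fth1 5′ UTR, chr19:9982732-9982761, plus strand: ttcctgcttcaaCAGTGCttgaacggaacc
Ftl1 5′ UTR, chr7:45459778-45459807, minus strand: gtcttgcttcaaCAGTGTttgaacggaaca

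Tfrc thus held 4 matches and Fth1 and Ftl1 1 each, all with 5 of 5 stem pairs, and the longer Slc11a2 transcript held 1 with 4 of 5. Such a match is not rare in itself: 9.055% of 31263 transcripts held at least 1, and 5 of them held 4 or more. Among transcripts within 10% of the same length the share with a match was 14.92% for Tfrc, 13.64% for Slc11a2, 6.682% for Fth1 and 6.352% for Ftl1. The transcripts searched for the other 6 members held no match to these letters, which says nothing about other forms of regulation.

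Levels are RPKM, read counts divided by transcript length in kilobases and by library size in units of 1000000 reads, so they can be compared between genes. A minimum of 1000 genes at or above 1 RPKM was met by 69 of the 96 cells. Mpo, the granule enzyme of granulocyte precursors, stood at 1000 RPKM or more in 9 of them. Those had 4 to 12 of 14 neutrophil markers, 2 to 11 of 12 monocyte or macrophage markers and 0 to 3 of 17 erythroblast markers at 10 RPKM, with Alas2, the erythroid haem enzyme, at no more than 0.208 RPKM, so these 9 cells go against their erythroid label and are called Mpo-high. The summed level of the neutrophil markers was 3527 to 80185 RPKM in Mpo-high cells and 0 to 132 RPKM in erythroid cells, that of the monocyte or macrophage markers was 905 to 13933 RPKM in Mpo-high cells and 0 to 128 RPKM in erythroid cells, and that of the erythroblast markers was 0.167 to 64.6 RPKM in Mpo-high cells and 2650.3 to 12166 RPKM in erythroid cells. Mpo is 1 of the 14 neutrophil markers, at 1543 to 18579 RPKM in Mpo-high cells, so that count and sum were set in part by the choice of class. Erythroid cells were chosen partly by these marker lists, so their counts and sums were set in part as well. Erythroid cells numbered 54, with 8 to 16 of 17 erythroblast markers, and were cut by Hba-a1, the adult alpha-globin gene, into 3 groups of 18. Hba-a1 ran between 49.6 and 532 RPKM in Mpo-high cells, and along the erythroid groups between 3163 and 307302 RPKM in globin-low cells, between 321044 and 439819 RPKM in globin-mid cells and between 443162 and 570277 RPKM in globin-high cells. The other 6 kept cells fitted neither class. Rpl11 itself had medians of 362, 59.9 and 0 RPKM in globin-low, globin-mid and globin-high cells, and no cell without the lox allele was there to set it against.

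Several qualities of the libraries moved with Hba-a1, and their part in the results was not tested. Globin genes made up a median of 0.136% of all length-scaled reads in Mpo-high cells, against 57.3% in globin-low cells, 85.5% in globin-mid cells and 90.8% in globin-high cells. Median genes per cell were 4900.0 in Mpo-high cells and 3474.5, 1848.5 and 1237 along the 3 erythroid groups, and Spearman's rho between Hba-a1 and genes per cell was -0.94 over the 54 cells, as a description. Estimated depth went the other way, with medians, in units of 1000 reads, of 4972 in Mpo-high cells and 6195, 7419 and 7963 along the erythroid groups. Gapdh, a gene that every cell uses, was listed at 0 in 10 of 18 globin-high cells, so an iron gene at 0 is reported only as listed at 0. Because globin fills the table, each difference below was also computed after globin genes were removed and every cell rescaled.

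The size rule for calling a gene higher or lower was a difference of at least 1 in mean log2(RPKM + 1), of the same sign in each run code that had 3 or more cells in both groups. In globin-high against globin-low cells 8 of the 10 members had enough cells to be compared, and 1 of the 8 was called higher and 3 lower, whereas 0 were called higher and 6 lower when each cell was scaled to one total, and 2 higher and 2 lower with globin removed. Of all 5356 genes compared, 0.803% were called higher and 65.3% lower, so being lower was the common state of the table and being higher was rare. The shares were 0.411% higher and 72.8% lower when scaled to one total, and 2.50% higher and 61.6% lower with globin removed. The median difference was -1.48 over the 8 members and -1.78 over all genes. In globin-mid against globin-low cells the members again gave 1 higher and 3 lower as deposited, 0 higher and 6 lower when scaled to one total, and 1 higher and 2 lower with globin removed, beside as-deposited shares of 1.08% higher and 55.5% lower of all genes, with medians of -0.78 for members and -1.38 for all genes. Of all genes, 0.448% were higher and 64.5% lower in globin-mid cells when scaled to one total, and 2.52% higher and 52.0% lower with globin removed. Both comparisons share the globin-low cells. In both, Steap3 is among the members called lower as deposited, and it passed the minimum of cells only through globin-low cells.

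Slc25a37, the mitochondrial importer mitoferrin 1 that supplies iron for haem, was the member called higher. Its lowest, median and highest values were 0, 51.5 and 217 RPKM in globin-low cells, 28.2, 72.8 and 282 RPKM in globin-mid cells and 27.2, 96.2 and 181 RPKM in globin-high cells. Every globin-mid and globin-high cell had it above 27 RPKM, whereas the globin-low cells were spread from 0 upwards, and the groups overlapped throughout. Its mean log2 level was 6.39 in globin-high and 4.84 in globin-low cells, a difference of 1.56, higher than that of 99.5% of the genes compared. The difference was 2.93 after globin removal but 0.47 when each cell's values were scaled to one total. It was 0.40 within run code SCP-1706080 and 0.999 with a pseudocount of 10. Each value under 1 ends the call, so its size rests on the scaling, the run code and the pseudocount, with the same sign in all 17 alternatives. Globin-mid cells differed from globin-low cells by 1.47, and by 0.62 when scaled to one total, 0.72 within run code SCP-1706080, 0.92 with a pseudocount of 10 and 0.47 as a difference of medians, each of which ends the call.

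The low values of Slc25a37 lay at the very start of the globin series. In the 6 globin-low cells with least Hba-a1, all at or under 76269 RPKM, it stood at 10.7, 4.51, 16.2, 0, 3.92 and 51.9 RPKM in rising order of Hba-a1. In the other 12 globin-low cells the lowest, median and highest were 0, 68.5 and 217 RPKM, with 1 cell listed at 0. Alas2 was split alike, with medians of 30.5 RPKM in the 6 cells and 415 RPKM in the 12. This split into 6 and 12 was chosen after the values were seen and is a description of 1 set of cells.

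Tfr2, a second transferrin receptor that senses iron and is known to associate with the erythropoietin receptor, sat at the same end of the series. It reached 1 RPKM in 5 of 18 globin-low cells (27.8%, exact Clopper-Pearson 95% interval 9.69% to 53.5%), 1 of 18 globin-mid cells and 0 of 18 globin-high cells, where the interval reaches up to 18.5%. The 5 globin-low cells were all among the 6 with least Hba-a1, at 33.0, 1.09, 33.1, 36.1 and 63.8 RPKM, and it was listed at 0 in each of the other 12. The globin-mid cell had 11.7 RPKM. At the median depth of globin-high cells 1 RPKM of Tfr2 stood for 23.7 reads, while loss of RNA at capture was not measured. With so few cells Tfr2 was not among the genes compared.

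**Figure D1:**
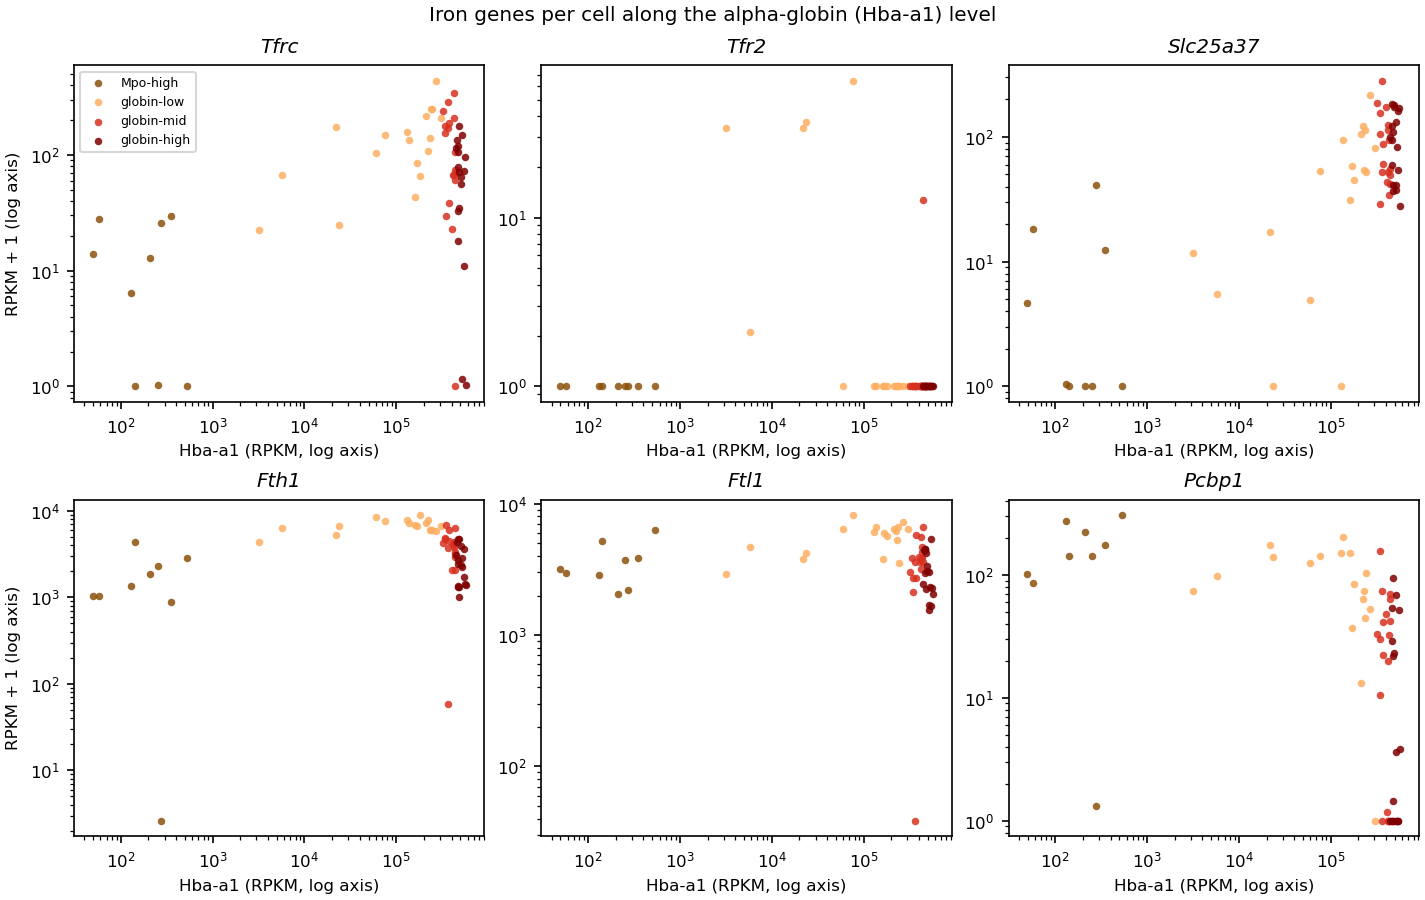
Level of 6 iron genes in single cells (RPKM + 1, log axis) against Hba-a1 (RPKM, log axis), 1 point per cell, coloured as Mpo-high cells (n = 9) or erythroid cells of the globin-low, globin-mid and globin-high groups (n = 18 each). Tfr2 was listed above 0 mainly at the low end of the erythroid cells, Slc25a37 was low there, and Pcbp1 was listed at or near 0 in many cells at the high end.

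Tfrc, transferrin receptor 1 and the main port of iron entry, was present in nearly every erythroid cell. The lowest, median and highest values were 21.2, 136 and 437 RPKM in globin-low cells, 0, 88.9 and 341 RPKM in globin-mid cells and 0.0281, 70.9 and 176 RPKM in globin-high cells. Of the 18 globin-high cells 16 lay below the globin-low median, and 4 lay below the whole globin-low range. The difference of mean log2 levels between globin-high and globin-low cells was -1.42 and was not called, since it was 0.17 within run code SCP-170608. It was -0.37 with globin removed, so no direction can be given for Tfrc across the series. A minimum of 2000 genes left 24 erythroid cells, cut anew by Hba-a1 into groups of 8, and gave 0.89. All 18 globin-low cells, with 2571 or more genes, were kept, whereas globin-high cells had a median of 1237 genes and at most 2003. That value therefore does not compare the reported globin-high and globin-low groups. Globin-mid minus globin-low was -0.51 as deposited and 0.15 with globin removed.

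Steap3, the endosomal reductase that turns ferric into ferrous iron, was called lower. It reached 1 RPKM in 11 of 18 globin-low cells, 1 of 18 globin-mid cells and 1 of 18 globin-high cells. With 4 Mpo-high cells these make 17, and without the globin-low cells the minimum of 10 cells would have been missed. Steap3 thus entered the genes compared only through globin-low cells, so its lower value elsewhere was largely fixed by that filter. Its median was 3.43 RPKM in globin-low cells and 0 in both upper groups, with highest values of 68.7, 66.6 and 4.86 RPKM along the series. The difference of mean log2 levels was -2.30 for globin-high and -2.16 for globin-mid cells against globin-low cells, and -2.59 and -2.57 with globin removed. Within run code SCP-1706080 it was -0.81 and -0.38, and with a pseudocount of 10 it was -0.91 and -0.79, which ends both calls.

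Slc11a2, the divalent metal transporter DMT1 that moves iron out of the endosome, was patchy. It reached 1 RPKM in 10 of 18 globin-low, 8 of 18 globin-mid and 4 of 18 globin-high cells, with medians of 16.1, 0.108 and 0 RPKM. Cells that listed it had up to 139, 121 and 47.0 RPKM along the series, so the groups overlapped fully. The globin-high minus globin-low difference of -1.91 was not called, because it was 0.62 within run code SCP-170608. The table lists a longer transcript of 4415 bases, which holds the hairpin shown above, and a shorter one of 3025 bases, which does not. In the 22 erythroid cells at 1 RPKM or more the shorter one had the higher RPKM in 20 and more reads in 15, although reads in exons that the transcripts share cannot be assigned to either.

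**Figure D2:**
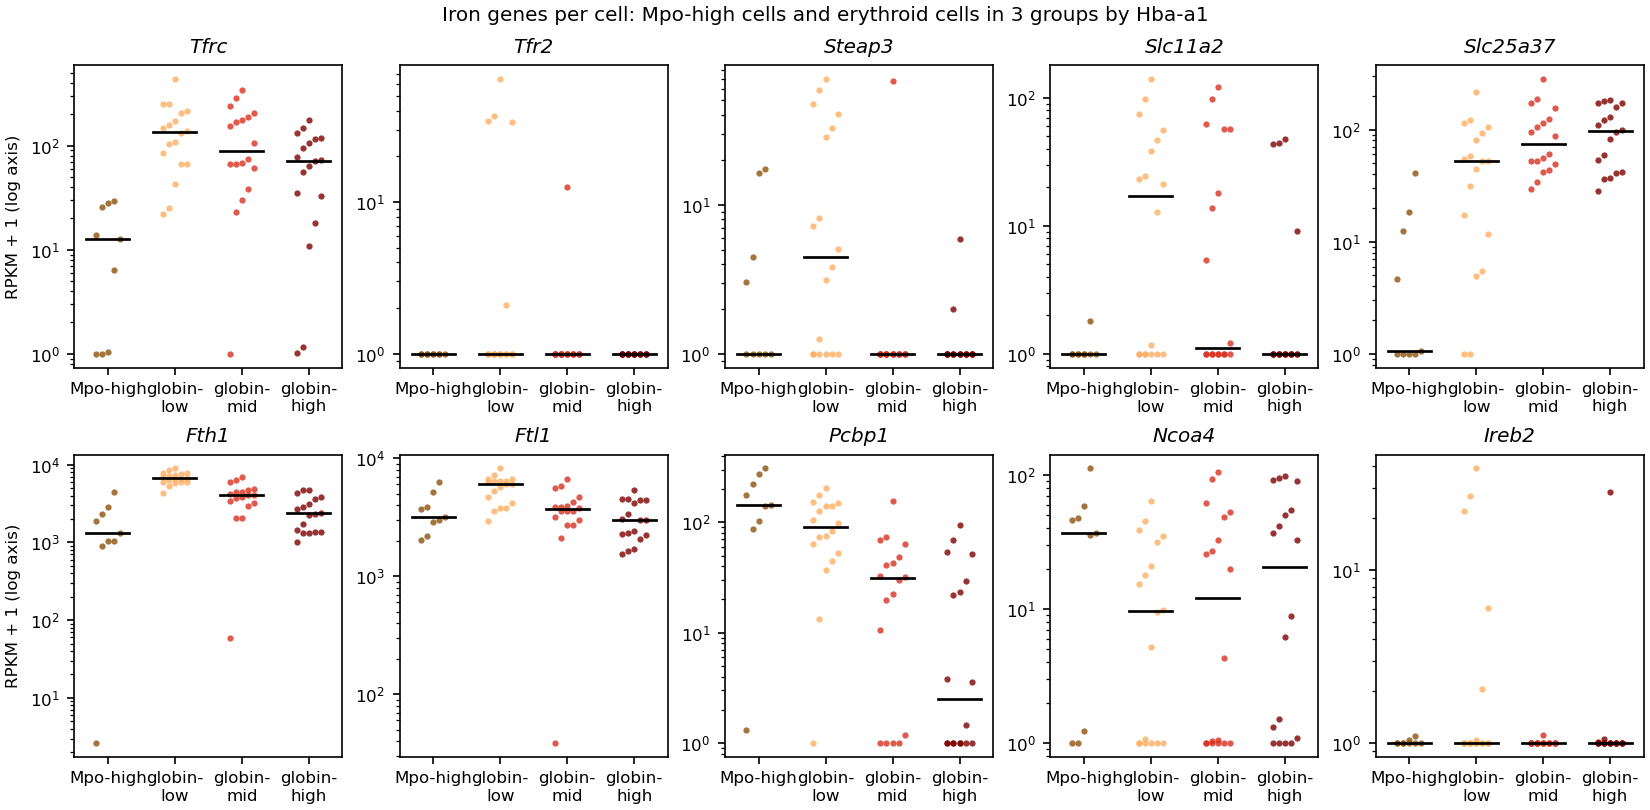
Level of each of the 10 iron genes (RPKM + 1, log axis) in Mpo-high cells (n = 9) and in globin-low, globin-mid and globin-high erythroid cells (n = 18 each); points are cells, bars are group medians. Fth1 and Ftl1 were above 0 in every cell shown, Slc25a37 was above 27 RPKM in all globin-mid and globin-high cells, and Tfr2 and Ireb2 were at 0 in most cells.

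Ferritin RNA was the most abundant of the 10 genes in every group. Fth1, the heavy chain with the ferroxidase site, had lowest, median and highest values of 4385, 6690.1 and 8999 RPKM in globin-low cells, 58.1, 4054 and 6860.2 RPKM in globin-mid cells and 1012, 2371 and 4724 RPKM in globin-high cells. Of the 18 globin-high cells 16 lay below every globin-low cell, and all 18 lay below the globin-low median. The mean log2 level was 11.17 in globin-high and 12.70 in globin-low cells, a difference of -1.54 that was called. With globin removed it was -0.26, which ends the call. A changed gene minimum cut the cells into new groups by Hba-a1, where the high minus low value was -0.48 at 500 genes per cell and -0.47 at 2000 genes. Neither of these was large enough for a call. The globin-mid minus globin-low difference of -1.08 was called too, and was -0.74 without the globin-mid cell lowest in Fth1 and -0.30 with globin removed. At 2000 genes the new low and mid groups, of 8 cells each, differed by 0.06. Both held only cells of the reported globin-low group, so that value does not bear on globin-mid cells.

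Ftl1, the light chain that helps mineralise iron in the shell, had lowest, median and highest values of 2937, 6049 and 8238 RPKM in globin-low cells, 37.6, 3704 and 6696 RPKM in globin-mid cells and 1544, 2994 and 5426 RPKM in globin-high cells. All 18 globin-high cells lay below the globin-low median and 8 below the whole globin-low range. The globin-high minus globin-low difference of -0.89 was not called, and with globin removed it was 0.39, so its sign depends on the scaling. The globin-mid cell at 58.1 RPKM of Fth1 and 37.6 RPKM of Ftl1 was 1 cell, the shallowest erythroid library at 1531 times 1000 reads. Both ferritin genes have processed copies in the mouse genome, and how reads that match several places were counted is not given in the sources used here.

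A ratio within a cell is touched by scaling only through the added 1 RPKM. The log2 ratio of Fth1 to Ftl1 had medians of 0.33 in globin-low, 0.12 in globin-mid and 0.01 in globin-high cells, and Fth1 was the higher chain in 15, 12 and 9 of 18 cells. It ran between -0.32 and 0.87 in globin-low cells and between -1.77 and 0.60 in globin-high cells, so the low end widened while the groups overlapped. The log2 ratio of Slc25a37 to Tfrc had medians of -1.25, -0.67 and 0.47 along the series, and Slc25a37 had the higher RPKM in 1, 5 and 10 of 18 cells. By rank among all genes of a cell, Fth1 stood at a median of 12 in globin-low, 21 in globin-mid and 21.5 in globin-high cells, and Ftl1 at 15, 20.5 and 21.5.

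**Figure D3:**
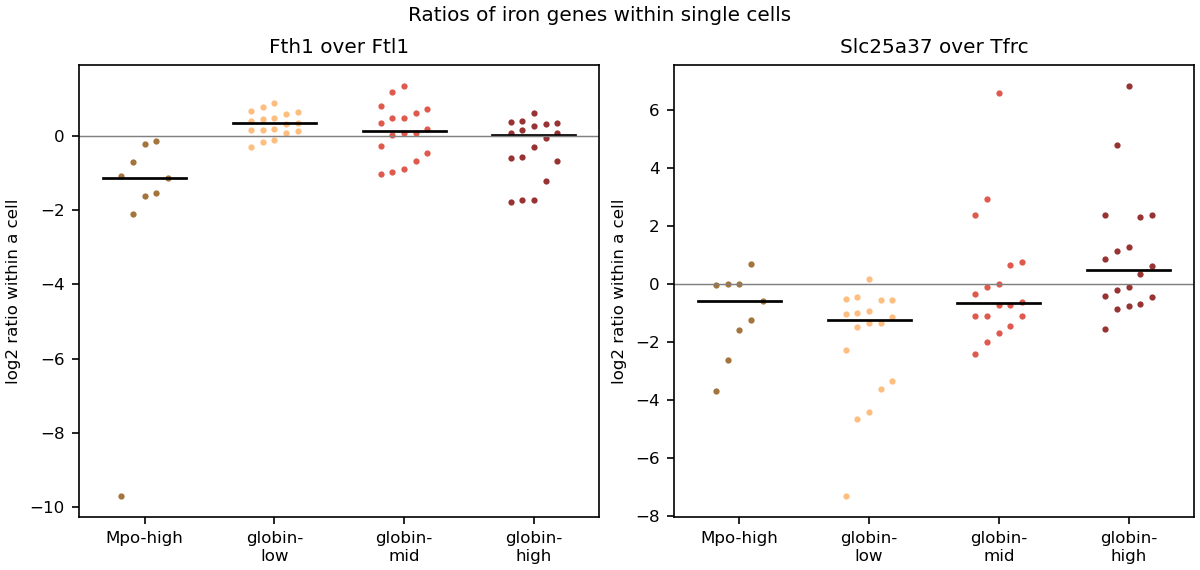
Log2 ratio within each cell of Fth1 to Ftl1 (left) and of Slc25a37 to Tfrc (right), computed from RPKM + 1, in Mpo-high cells (n = 9) and the 3 erythroid groups (n = 18 each); points are cells and bars are medians. Fth1 was below Ftl1 in all 9 Mpo-high cells, and Slc25a37 was above Tfrc in 10 of 18 globin-high but 1 of 18 globin-low cells.

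Pcbp1, an RNA-binding protein that also acts as an iron chaperone and loads ferritin, was called lower. Its lowest, median and highest values were 0, 90.2 and 204 RPKM in globin-low cells, 0, 30.1 and 157 RPKM in globin-mid cells and 0, 1.53 and 92.8 RPKM in globin-high cells. It reached 1 RPKM in 17, 13 and 9 of 18 cells. The globin-high minus globin-low difference was -3.72 and the globin-mid one -2.21, and both kept their sign and size of at least 1 in every alternative that was run, with -3.48 and -1.85 after globin removal. Only 17.0% of the genes compared had a more negative difference between globin-high and globin-low cells.

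Ncoa4, the receptor that takes ferritin to the lysosome and so frees its iron, was called in neither erythroid comparison. It reached 1 RPKM in 11, 10 and 11 of 18 globin-low, globin-mid and globin-high cells, and its median values were 8.65, 11.1 and 19.7 RPKM. The globin-high minus globin-low difference of 0.65 was not called, being 3.95 within run code SCP-1706013, -0.03 within SCP-170608 and -0.60 within SCP-1706080. Ireb2, which encodes iron regulatory protein 2, reached 1 RPKM in 5 globin-low, 0 globin-mid and 1 globin-high cell, with a highest value of 37.9 RPKM, and like Tfr2 was not among the genes compared.

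**Figure D4:**
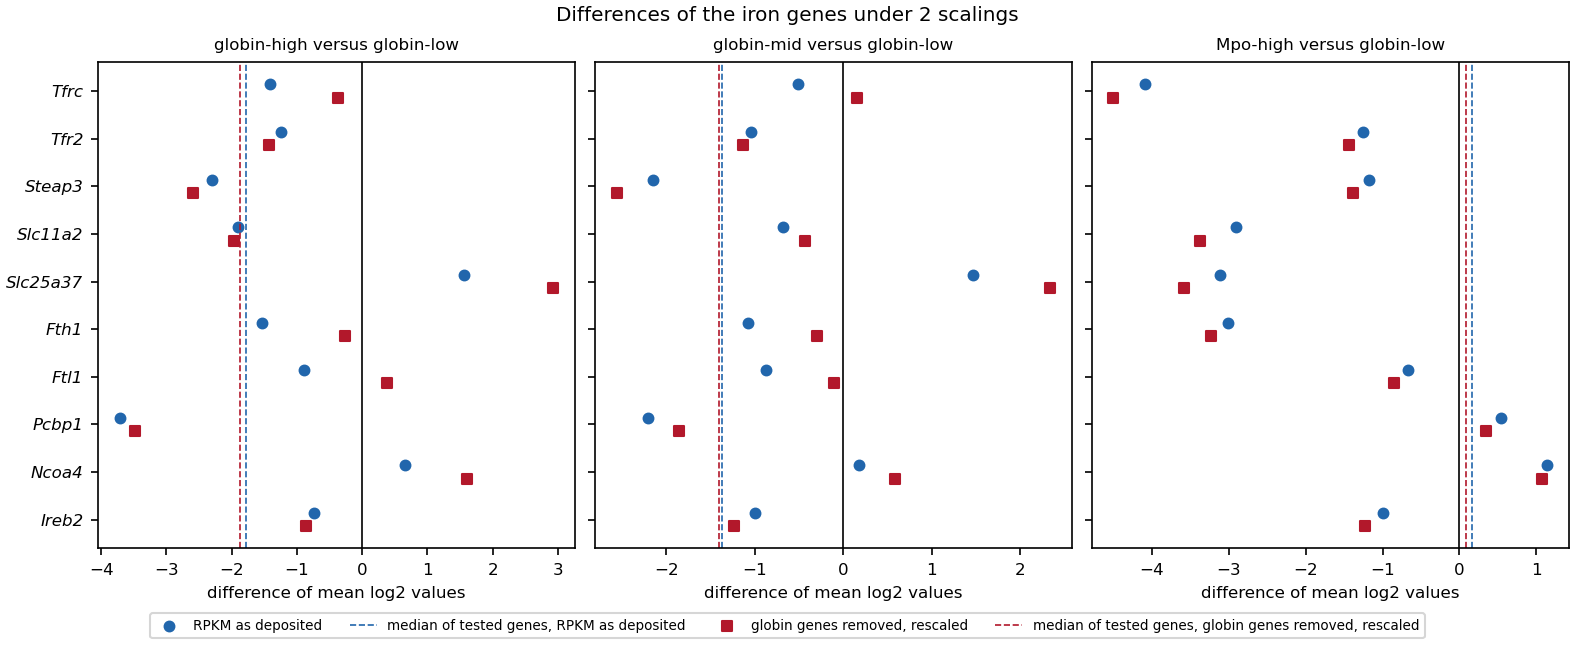
Difference of mean log2(RPKM + 1) of the 10 iron genes between globin-high and globin-low, globin-mid and globin-low, and Mpo-high and globin-low cells, from RPKM as deposited (circles) and after removal of globin genes and rescaling (squares); dashed lines mark the median of the 5356 genes compared. Slc25a37 lay to the right of 0 in both erythroid comparisons under both scalings, whereas Ftl1 changed sign between globin-high and globin-low cells.

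As a description over the 54 erythroid cells, which share depth and composition with Hba-a1, Spearman's rho with Hba-a1 was -0.78 for Fth1, -0.62 for Pcbp1, -0.56 for Steap3, -0.51 for Ftl1, -0.43 for Tfr2, -0.30 for Tfrc, 0.12 for Ncoa4 and 0.31 for Slc25a37. With globin removed, rho was -0.07 for Fth1, 0.35 for Ftl1, 0.08 for Tfrc and 0.60 for Slc25a37, while it was -0.55 for Steap3 and -0.40 for Pcbp1. For each member at 1 RPKM or more in at least 50% of the erythroid cells, the genes with the most alike pattern were taken from 1477 genes that passed the same minimum. Tfrc was closest to Cd47 (rho 0.68), Ctse (0.58) and Ctsb (0.55), where its median over all genes was 0.15. Slc25a37 was closest to Pwwp2a (0.53), Hbb-bh2 (0.49) and Slc4a1, the anion exchanger of the red cell membrane (0.48), against a median of -0.24. Fth1 was closest to Ndufb2 (0.87), Rps29 (0.87) and Blvrb (0.86), with a median of 0.51, and Pcbp1 to Eif5a (0.73), Hmgb1 (0.72) and Lsm4 (0.71), with a median of 0.39. Ncoa4 was closest to Tfdp2 (0.57), Pik3r1 (0.42) and Ube2c (0.40), with a median of -0.11.

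Ftl1 had as its closest entries Mir692-2 and Mir692-3 (rho 0.96 each) and Mir692-1 (0.69). The mature miRNA of all 3 loci, on chromosomes 4, 13 and 17, is shown because it is itself a stretch of Ftl1, with its seed (bases 2 to 8) in capitals; sequences are those of RefSeq on GRCm38.p6.
mmu-miR-692: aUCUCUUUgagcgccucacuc
All 21 bases lie on the same strand of the Ftl1 coding region, from base 771 of its 968-base transcript, and the Mir692-2 hairpin shares a run of 59 bases with Ftl1. Mir692-2 and Mir692-3 had the same values, with lowest, median and highest of 41.7, 474 and 953 RPKM in erythroid cells, and reads from the shared run cannot be told apart between Ftl1 and these entries.

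Set against globin-low cells, the Mpo-high cells had 1 member called higher and 4 lower of the 8 compared, beside 25% higher and 18.6% lower of all 5356 genes. When each cell was scaled to one total that split of all genes was 38.0% higher and 13.1% lower, and with globin removed it was 25.0% higher and 22.0% lower. Over 19 alternatives the members called ran from 0 to 2 higher and from 3 to 5 lower. The median difference was -2.04 for the members and 0.16 for all genes. The 4 lower members were Tfrc, Slc11a2 and Slc25a37, which act at the surface, the endosome and the mitochondrion, and the ferritin heavy chain Fth1.

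Tfrc had lowest, median and highest values of 0, 11.8 and 28.5 RPKM in Mpo-high cells, against 21.2, 136 and 437 RPKM in globin-low cells. Of the 9 Mpo-high cells 6 lay below every globin-low cell. The mean log2 level was 2.73 in Mpo-high and 6.82 in globin-low cells, a difference of -4.09, and 1.98% of the genes compared had a more negative one.

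Slc25a37 was listed at 0 in 4 of 9 Mpo-high cells and at 1 RPKM or more in 4, with a highest value of 40.3 RPKM, against 16 of 18 globin-low cells at 1 RPKM or more. The difference of mean log2 levels was -3.11. Slc11a2 reached 1 RPKM in 0 of 9 Mpo-high cells (up to 33.6%) and 10 of 18 globin-low cells, with a difference of -2.91. These differences, and that of Tfrc, were at or below -1 under every alternative that was run against globin-low cells.

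Fth1 had lowest, median and highest values of 1.62, 1338 and 4412 RPKM in Mpo-high cells, against 4385, 6690.1 and 8999 RPKM in globin-low cells, and 8 of 9 Mpo-high cells lay below all globin-low cells. The difference was -3.01, and it was -1.97 without the Mpo-high cell lowest in Fth1. That cell also had the fewest genes of its class, 1842 where the others had 3556 or more, and the shallowest library, 1958 where the others had 3146 or more in units of 1000 reads. Ftl1 had 2049.6, 3185 and 6256 RPKM in Mpo-high cells, against 2937, 6049 and 8238 RPKM in globin-low cells, and its difference of -0.67 was not called and was 0.25 when each cell was scaled to one total. The chains were thus unequal in the Mpo-high cells: Fth1 was the lower one in 9 of 9 cells, with a median log2 ratio to Ftl1 of -1.13, against 0.33 in globin-low cells. This order was not particular to them, as Fth1 was also below Ftl1 in 9 of 18 globin-high cells and in each of the 6 kept cells that fitted neither class. Fth1 held a median rank of 44 among the genes of a Mpo-high cell and Ftl1 a median rank of 15.

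Ncoa4 was the member called higher, with a median of 36.0 RPKM in Mpo-high and 8.65 RPKM in globin-low cells and a difference of 1.14. It was 2.99 within run code SCP-170608, but 0.20 within SCP-1706080 and 0.73 with a pseudocount of 10, and either of the last values ends the call. Of the genes compared, 74.6% had a difference below that of Ncoa4. Pcbp1 had a median of 141 RPKM in Mpo-high and 90.2 RPKM in globin-low cells, a difference of 0.54 that was not called and was 1.31 without the Mpo-high cell that was lowest in Fth1. Steap3 differed by -1.17 and was not called, and Tfr2 and Ireb2 reached 1 RPKM in 0 of 9 Mpo-high cells and in 5 of 18 globin-low cells each. Set against all 54 erythroid cells, Mpo-high cells again had 1 member called higher, Pcbp1 at 2.51, and 4 lower, Tfrc, Slc11a2, Slc25a37 and Fth1 at -3.45, -2.04, -4.12 and -2.14, beside 55.7% higher and 8.78% lower of all genes. With each cell scaled to one total 3 members were called higher and 3 lower, beside 67.2% higher and 5.68% lower of all genes. That comparison shares its Mpo-high cells and its globin-low cells with the one before. Under that scaling Fth1 was at -0.57, and with a pseudocount of 10 Slc11a2 was at -0.93, which ends those calls.

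Of 48 other genes of iron handling, 46 were in the table and 24 had enough cells to be compared. In globin-high against globin-low cells 0 were called higher and 18 lower, with a median of -2.11, led by Bola2 (-5.75), Sfxn1 (-4.59), Iscu (-4.57) and Nfu1 (-4.51). Bola2 and Nfu1 act in the delivery of iron and of iron-sulphur clusters, Iscu is the scaffold on which the clusters form, and Sfxn1 is a mitochondrial serine carrier. In globin-mid against globin-low cells 1 was called higher, the cluster co-chaperone Hscb at 1.12, and 17 lower, led by Nfu1 (-4.24), Sfxn1 (-4.22), Glrx3 (-4.11) and Nfs1 (-3.60). These counts of lower genes stand beside 65.3% and 55.5% of all genes. Glrx3, Nfs1 and Nfu1 reached 1 RPKM in 20, 18 and 22 erythroid or Mpo-high cells, of which 11, 12 and 13 were globin-low. Without the globin-low cells none of them would have reached the 10 cells needed, so their lower values elsewhere were largely fixed by that filter.

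In Mpo-high against globin-low cells 3 of the 24 were called higher and 7 lower, beside 25% higher and 18.6% lower of all genes. Lower were Isca1, a late-acting cluster protein (-5.35), Picalm, an adaptor of receptor uptake by clathrin (-4.04), Glrx5, which hands on mitochondrial clusters (-3.62), and Abcb10, a mitochondrial transporter of the inner membrane (-3.51). Isca1 had a median of 0.112 RPKM in Mpo-high and 206 RPKM in globin-low cells, and Glrx5 174 RPKM in Mpo-high and 1269.6 RPKM in globin-low cells. Against all erythroid cells 10 of the 24 were called higher and 5 lower, beside 55.7% higher and 8.78% lower of all genes, led by Glrx3 (5.75), Isca1 (-4.83), Nfu1 (4.49) and Fdx1l (3.87). Fdx1l reached 1 RPKM in 16 cells, 7 of them Mpo-high, and Fdx1 in 10 cells, 6 of them Mpo-high. Both passed the minimum of 10 cells only through that class, and both are among the genes called higher in each of the Mpo-high comparisons. Their higher values in Mpo-high cells were thus largely fixed by that filter.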

How the data were processed

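Cells were isolated with a Fluidigm C1 instrument, amplified with SMART-Seq chemistry and made into Nextera XT libraries, per the labels' protocols. The deposited values are RPKM per RefSeq transcript; TopHat2 2.0.9 and mm9 are named in the submitters' processing notes, per the labels, while no counting tool and no treatment of multiply mapped reads is named there. All 34899 rows and 96 columns were read, and 0 pairs of cells held identical values. In each cell a gene took its highest transcript, as 5556 symbols have several. Differences were computed on log2(RPKM + 1), which understates low genes, over genes that reached 1 RPKM in 10 or more cells. Depth, unknown from RPKM, was estimated for 80 cells from the steps between low values, with lengths matched for 96.4% of transcripts and a tolerance of 0.06 reads; amplified reads are not independent molecules, and intervals of shares are exact binomial ones over cells of 1 sample that cover counting error only. Erythroid cells had at least 3 late progenitor or erythroblast markers at 10 RPKM, Mpo under 1000 RPKM and no other cell type's list at 50% or more. Captures of more than 1 cell were not called. The run codes in the descriptions (52, 25 and 19 cells) differ from the single code in the titles. Members, lists and the rule for named genes (all members, the 4 largest called differences of other iron genes per comparison, and 3 alike genes per member) were chosen with earlier results of these data known. Alternatives changed the pseudocount, transcript summary, scaling, gene minimum, marker filter, group cuts, Mpo level and run code; 3 more were added after the data were seen. Python 3.11.15, pandas 2.3.3 and scipy 1.17.1 were used, and the steps were checked on simulated data.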

Additional observations from a re-analysis of the deposited data

Results flagged for a closer look

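Among the 9 Mpo-high cells, 4 of 10 iron genes had 1 cell far from the others by the gap between neighbouring values. Slc11a2 was listed at 0 in 8 of these cells and Ireb2 in 7, so even a small value above 0 can stand apart. Fth1 and Pcbp1 flagged the same cell, so no chance rate is set beside the count. One cell was lowest in both Fth1, at 1.62 RPKM against 892 RPKM or more in the others, and Pcbp1, at 0.307 RPKM, and it was also the shallowest Mpo-high library, with 1842 genes where the others had 3556 or more. Another had Slc11a2 at 0.797 RPKM where the other 8 were listed at 0, and another had Ireb2 at 0.103 RPKM. Both of the last values are under 1 RPKM.

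The 27 cells under the gene minimum entered no comparison, yet iron genes were listed in many of them. Ftl1 was at 1 RPKM or more in 23 of them, Fth1 in 22, Slc25a37 in 20, Tfrc in 14, Ncoa4 in 5, Slc11a2 in 3, Pcbp1 in 2 and Ireb2 in 1, and the highest Ftl1 value was 74284 RPKM.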

How the results depend on the processing

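The values below are median log2 differences over the 8 members compared. Globin-high minus globin-low was -1.48 as reported, -2.23 with each cell scaled to one total, -0.31 with globin removed, -0.57 at a minimum of 500 genes, -0.44 at 2000 genes and -0.28 within run code SCP-170608. Globin-mid minus globin-low was -0.78, and -1.54 with each cell scaled to one total, -0.20 with globin removed and -0.13 at 500 genes. A changed gene minimum cut the erythroid cells anew by Hba-a1, into groups of 22 at 500 genes and of 8 at 2000 genes. The new mid and low groups at 2000 genes gave 0.059, and 0.062 for Fth1. Both held only cells of the reported globin-low group, so these are not globin-mid values. Mpo-high minus globin-low was -2.04, and -0.996 with a pseudocount of 10, -0.96 at 500 genes and -1.10 within SCP-170608. Mpo-high minus all erythroid cells was -1.07, turned to 0.036 with each cell scaled to one total, and was -1.77 with globin removed, -0.28 at 500 genes, -0.55 without the Mpo-high cell lowest in Fth1 and -0.14 as a difference of medians. The cause of these shifts was not tested. In all, 62 recomputed medians moved by less than 1 SD over cells, a wide margin that takes in several of the shifts above. A further 10 moved by more, and 1 with a reported median of at least 1 in size changed sign. Of the values of single genes and counts, 818 moved by less than 1 SD over cells or 1.5 times a count and 203 by more. No paired analysis was possible because all cells carry 1 group label and their numbers only name cells. A split into equal upper and lower groups gave no value for globin-mid cells, and run code SCP-1706013, with 1 Mpo-high cell, gave none for that class. The number of members called ran from 0 to 2 higher and 2 to 6 lower for globin-high, and from 0 to 2 higher and 1 to 6 lower for globin-mid, against globin-low cells. For Mpo-high against globin-low cells it ran from 0 to 2 higher and 3 to 5 lower.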

Other observations

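The 6 kept cells that fitted neither class had ferritin but almost no mitoferrin: Slc25a37 reached 1 RPKM in 0 of 6, with a highest value of 0.349 RPKM, while Tfrc reached it in 4 of 6 with a median of 46.8 RPKM. Their Fth1 ran between 506 and 3031 RPKM and their Ftl1 between 2032 and 5091 RPKM.

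The number of iron genes at 1 RPKM or more in a cell had a lowest, median and highest of 4, 4 and 7 of 10 in Mpo-high cells, and of 5, 7 and 10 in globin-low, 4, 6 and 7 in globin-mid and 4, 5.5 and 7 in globin-high cells. The highest count was in globin-low cells, the erythroid group in which median genes per cell were also highest.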
